A study of Mus musculus with 22 samples.

Results

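The genes described here were 8 that mark microglia at rest in the healthy central nervous system: P2ry12, P2ry13, Cx3cr1, Gpr34, Tmem119, Siglech, Sall1 and Olfml3. They were chosen by name, as textbook homeostatic microglia genes, but with earlier results of these data known. All 8 were found among the 21995 genes of the expression table. Each was followed through a pair of separate comparisons in the mouse spinal cord, the first of aging and the second of a model of amyotrophic lateral sclerosis (ALS). The aging comparison set 8 old against 8 young C57BL/6 wild-type mice, which were 18 to 24 and 3 to 4 months old and, per the study's methods, all male. The ALS comparison set 3 symptomatic SOD1-G93A mice against 3 wild-type controls, all 5 to 6 months old and of mixed sex. The SOD1-G93A line holds a high-copy transgene of human SOD1 with an ALS mutation, and the mutant protein is made in most cell types and not in microglia alone. Each library came from the whole spinal cord of 1 mouse. The libraries of the aging and ALS experiments were made with different kits, so that kit and experiment cannot be told apart, and levels are compared only within an experiment unless stated.

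Microglia are the resident macrophages of the brain and spinal cord. In the resting state they survey the tissue with fine processes, and they hold a set of genes that other macrophages express weakly or not at all, maintained by signals such as TGF-beta and by transcription factors including Sall1. In aged, injured or degenerating tissue many microglia are known to lower these genes and to raise lysosomal, phagocytic and lipid-handling genes, a state often called disease-associated. Purinergic and chemokine receptors such as P2ry12 and Cx3cr1 connect resting microglia to neurons, which release nucleotides and carry the chemokine Cx3cl1.

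The libraries held 5078092 to 9358055 gene-assigned counts in young mice, 5664869 to 9145600 in old mice, 10693060 to 13219797 in controls and 9675610 to 11872431 in SOD1-G93A mice. Levels are given as CPM, counts of the gene per 1000000 counts of the library, with library sizes adjusted by the trimmed mean of M-values so that libraries of 1 experiment can be compared, and libraries are numbered in the order of the table's columns as a name only. In whole tissue a gene of 1 cell type can differ because there are fewer or more such cells or because each holds less or more RNA, and these cannot be told apart here. RNA of microglia and macrophages was followed separately from the 8 genes with 22 pan-myeloid genes, such as Laptm5 and Itgam. These can themselves change per cell, so their sum is not a count of cells. In aging their log2 fold changes ran from 0.47 for Coro1a to 2.23 for Itgb2. The summed level was 174 to 209 CPM in young, 311 to 525 CPM in old, 188 to 207 CPM in control and 822 to 1481 CPM in SOD1-G93A libraries. In that sum 2 libraries stood apart from their groups. Old library 6 had 311 CPM, against 424.5 CPM in the next lowest old library, and SOD1-G93A library 2 had 822 CPM, against 1264 and 1481 CPM in the others of its group. Values without these libraries are given wherever a result rested on them.

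All 8 genes are protein-coding, and 2 of them lie side by side. In the GRCm38 build with GENCODE M21 annotation, P2ry12 (ENSMUSG00000036353) spans chr3:59216272-59262871 and P2ry13 (ENSMUSG00000036362) spans chr3:59207892-59210882, both on the minus strand with 5389 bases between them. Both sit inside Med12l, a gene of the opposite strand that shares 9 exon bases with P2ry12 and 0 with P2ry13. Olfml3 (ENSMUSG00000027848) lies on the same chromosome at chr3:103722222-103738001. Tmem119 (ENSMUSG00000054675) is at chr5:113793729-113800516, Sall1 (ENSMUSG00000031665) at chr8:89027235-89044162 and Siglech (ENSMUSG00000051504) at chr7:55768178-55778925. Gpr34 (ENSMUSG00000040229) is at chrX:13632089-13640858, inside Cask on the opposite strand, with 0 shared exon bases. Cx3cr1 (ENSMUSG00000052336) is annotated over chr9:119901616-120069879 and shares 78 exon bases with Gm33858, a gene of the other strand that was not analysed here. Of the genes within this span or overlapping it, with 0 shared exon bases, Wdr48, Gorasp1, Ttc21a and Csrnp1 were tested, and 1 of them was called, Csrnp1 in SOD1-G93A mice on the same strand (log2 fold change 0.93, adjusted p = 0.0179, edgeR). Med12l and Cask had log2 fold changes of -0.20 and -0.21 in old mice (adjusted p of 0.0245 and 0.00282) and of -0.66 and -0.22 in SOD1-G93A mice (adjusted p of 0.0194 and 0.102, edgeR quasi-likelihood test).

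RefSeq start-site windows (GRCm38.p6, 250 bases before to 50 after the start) were held for 6 of the 8 genes. The windows of P2ry12 and P2ry13 are shown because the genes are neighbours of the same receptor family that differed in the data, and those of Olfml3 and Cx3cr1 because these genes rose in both comparisons. Capitals mark AGGAAG or its reverse complement CTTCCT, the core bound by PU.1 and other ETS-type factors, read on both strands. The windows are chr3:59262936-59263235 for P2ry12, chr3:59210833-59211132 for P2ry13, chr3:103737952-103738251 for Olfml3 and chr9:120068247-120068546 for Cx3cr1, all read 5′ to 3′ on the minus strand.
P2ry12: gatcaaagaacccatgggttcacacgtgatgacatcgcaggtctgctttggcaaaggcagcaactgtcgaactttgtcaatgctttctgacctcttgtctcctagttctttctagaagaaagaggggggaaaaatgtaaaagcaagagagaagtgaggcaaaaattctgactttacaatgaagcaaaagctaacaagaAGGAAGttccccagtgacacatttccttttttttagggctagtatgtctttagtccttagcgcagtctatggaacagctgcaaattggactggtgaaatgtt
P2ry13: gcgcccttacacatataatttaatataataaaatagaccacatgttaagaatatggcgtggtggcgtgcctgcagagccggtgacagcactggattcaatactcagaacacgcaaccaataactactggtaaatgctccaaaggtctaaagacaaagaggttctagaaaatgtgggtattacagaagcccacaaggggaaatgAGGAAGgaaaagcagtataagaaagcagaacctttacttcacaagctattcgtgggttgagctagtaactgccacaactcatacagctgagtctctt
Olfml3: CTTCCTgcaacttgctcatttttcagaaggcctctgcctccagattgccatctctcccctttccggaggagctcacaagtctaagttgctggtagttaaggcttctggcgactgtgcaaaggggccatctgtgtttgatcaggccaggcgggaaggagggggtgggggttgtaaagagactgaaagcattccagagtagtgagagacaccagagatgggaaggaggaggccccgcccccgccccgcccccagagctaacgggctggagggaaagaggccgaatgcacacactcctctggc
Cx3cr1: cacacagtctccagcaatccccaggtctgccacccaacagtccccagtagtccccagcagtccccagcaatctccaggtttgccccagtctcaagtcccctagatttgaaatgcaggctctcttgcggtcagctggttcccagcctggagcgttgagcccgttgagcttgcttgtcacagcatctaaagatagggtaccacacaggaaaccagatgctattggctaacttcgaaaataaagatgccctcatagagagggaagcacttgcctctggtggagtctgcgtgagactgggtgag
The marked form occurred once in the windows of P2ry12, P2ry13 and Olfml3, and these letters were not in the Cx3cr1 window. Of the 8 windows of the 6 genes, which include 3 for Sall1, 4 held this form, beside 35.4% of all 32851 RefSeq windows of the same length. The neighbours P2ry12 and P2ry13 both held it once.

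In old spinal cord 5 of the 8 genes were higher than in young cord and 0 were lower. Olfml3 rose 2.26-fold, Cx3cr1 1.88-fold, Gpr34 1.65-fold, P2ry13 1.64-fold and Tmem119 1.45-fold, while P2ry12, Siglech and Sall1 did not pass the test. All 8 genes passed the filter on low counts. At an unadjusted p under 0.05 the counts were again 5 higher and 0 lower, and DESeq2 and limma-trend both gave 5 higher and 0 lower after adjustment. Of all 13647 genes tested, 13.5% were called higher and 26.4% in either direction (edgeR quasi-likelihood test, Benjamini-Hochberg adjusted p under 0.05), and the median log2 fold change was 0.63 over the 8 genes and -0.0027 over all genes. Only Olfml3 also passed a log2 fold change of 1, as did 2.18% of all genes in that direction. In 4 of the 8 genes every old library lay above every young library, which was so for 3.66% of all genes.

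In SOD1-G93A spinal cord the pattern was steeper for a subset of the same genes. Olfml3 was 3.97-fold, Cx3cr1 3.76-fold, Gpr34 3.22-fold and P2ry13 2.40-fold higher than in controls, whereas P2ry12, Sall1, Tmem119 and Siglech did not pass the test. The 4 called genes compare with 18.4% of all 14386 genes called higher and 33.9% called in either direction, and all 4 passed a log2 fold change of 1, as did 8.5% of all genes. In 5 of the 8 genes, these 4 and Siglech, every SOD1-G93A library lay above every control library, beside 25.7% of all genes. The median log2 fold change was 0.90 over the 8 genes and 0.0031 over all genes. Here too 0 of the 8 genes were lower by edgeR, DESeq2 or limma-trend, and at an unadjusted p under 0.05 edgeR gave 6 higher and 0 lower.

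**Figure D1:**
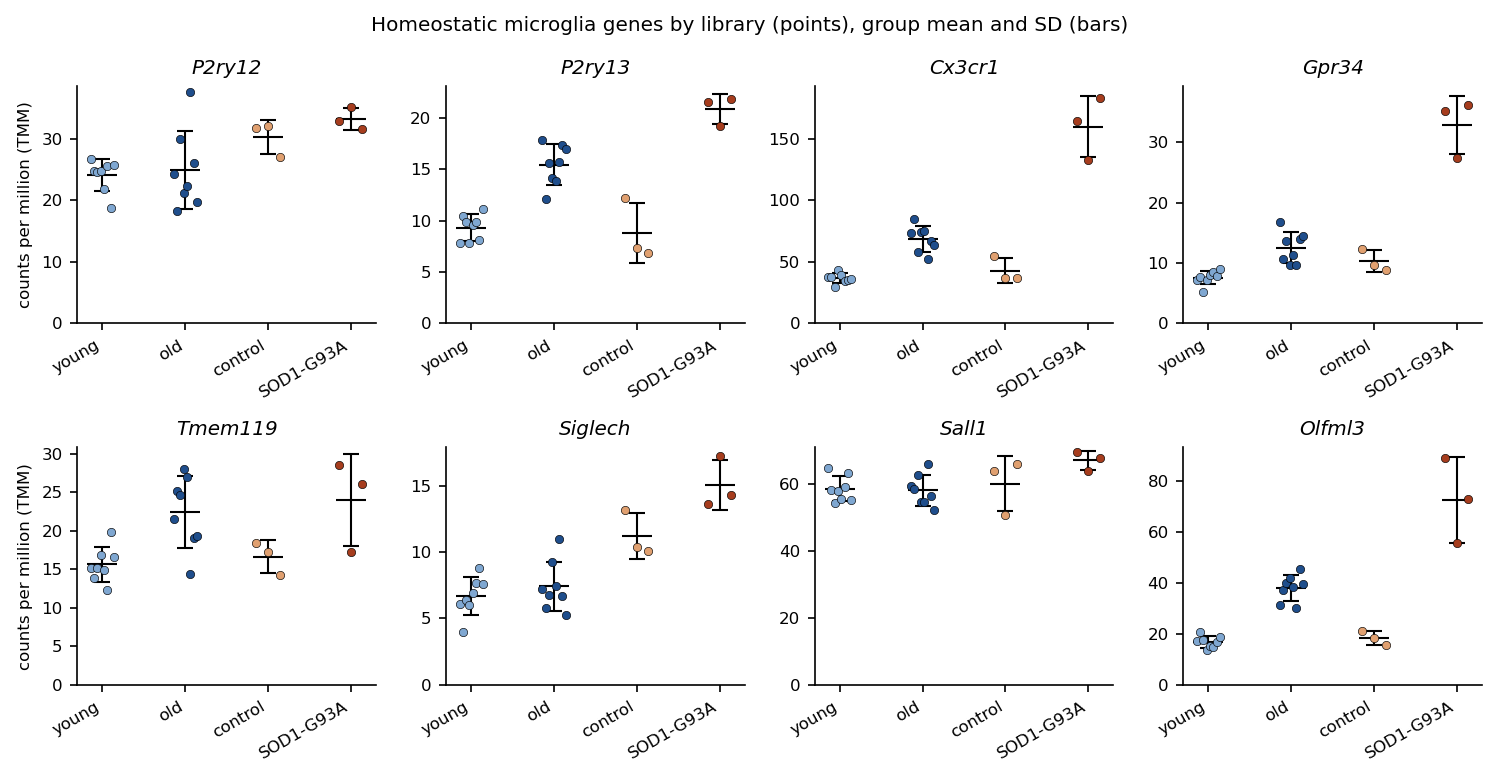
CPM of the 8 genes in every library, in 1 panel per gene with an axis from 0; points are libraries and bars give the group mean ± SD (8 young, 8 old, 3 control and 3 SOD1-G93A). Cx3cr1, Gpr34, P2ry13 and Olfml3 lie apart in both comparisons, while the P2ry12 and Sall1 points of old and young libraries share a range.

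The ADP receptors came first. P2ry12 is the G-protein-coupled receptor by which microglial processes find ADP released at an injury. Its level was 18.7 to 26.7 CPM in young libraries (median 24.8) and 18.3 to 37.6 CPM in old libraries (median 23.3). The old libraries reached both below and above the young ones, with 1 library under and 2 over the young range, and the SD was 6.33 CPM in old against 2.61 CPM in young mice. The log2 fold change was 0.05 (SE 0.12, 95% interval -0.20 to 0.29, adjusted p = 0.814, edgeR), and it was -0.06 without old library 6, which had the highest P2ry12 level of all old libraries. In the ALS experiment P2ry12 stood at 31.8, 32.1 and 27.1 CPM in controls and at 32.9, 35.15 and 31.6 CPM in SOD1-G93A mice. These groups overlapped, and the log2 fold change of 0.13 had a 95% interval of -0.11 to 0.37 (adjusted p = 0.363, edgeR).

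P2ry13, a second ADP receptor of the same gene cluster, behaved otherwise. It was measured at 7.76 to 11.1 CPM in young libraries (median 9.735) and at 12.1 to 17.8 CPM in old libraries (median 15.7), and the groups did not overlap. The log2 fold change was 0.71 (SE 0.10, 95% interval 0.51 to 0.92, adjusted p = 9.35e-06, edgeR). Controls had 12.2, 7.32 and 6.84 CPM, and SOD1-G93A libraries had 21.5, 19.2 and 21.8 CPM. Control library 1 was well above the other controls yet below all SOD1-G93A libraries, and the log2 fold change was 1.26 (SE 0.21, 95% interval 0.78 to 1.74, adjusted p = 0.00337, edgeR). Within single libraries P2ry13 had 0.292 to 0.44 counts per P2ry12 count in young, 0.418 to 0.858 in old, 0.228 to 0.382 in control and 0.547 to 0.691 in SOD1-G93A mice, so that the balance between the adjacent genes moved toward P2ry13 in nearly all old and in all SOD1-G93A libraries. P2ry14, a UDP-sugar receptor of the same cluster that is not among the 8 genes, had log2 fold changes of -0.10 (adjusted p = 0.767) in old and 0.76 (adjusted p = 0.0436) in SOD1-G93A mice.

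Cx3cr1 is the receptor for the neuronal chemokine Cx3cl1 (fractalkine). Young libraries held 29.45 to 42.9 CPM (median 36.9) and old libraries 51.98 to 84.8 CPM (median 70.2), with no overlap. The log2 fold change was 0.91 (SE 0.09, 95% interval 0.74 to 1.09, adjusted p = 2.86e-08, edgeR). The lowest old value came from old library 6, and without it the log2 fold change was 0.96. In the ALS experiment Cx3cr1 stood at 54.7, 36.9 and 36.5 CPM in controls and at 164.3, 133.1 and 183.0 CPM in SOD1-G93A mice. Every SOD1-G93A library was thus far above the highest control, and the log2 fold change was 1.91 (SE 0.18, 95% interval 1.51 to 2.32, adjusted p = 0.000236, edgeR). Cx3cl1 itself, named for its role and not by its rank in any list, was 234 ± 14.1 CPM in old and 243 ± 17.7 CPM in young mice (SD, n = 8 each; log2 fold change -0.05, adjusted p = 0.432). It was lower in SOD1-G93A mice, at 174 ± 17.8 CPM against 217.5 ± 5.79 CPM (SD, n = 3 each; log2 fold change -0.32, adjusted p = 0.0325, edgeR), so the receptor and its ligand moved in opposite directions there.

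Gpr34 is a receptor for lysophosphatidylserine, a lipid exposed by damaged cells. It ranged from 5.19 to 9.02 CPM in young (median 7.70) and from 9.56 to 16.9 CPM in old libraries (median 12.4). The groups did not overlap, although the lowest old library, again number 6, was close to the highest young one. The log2 fold change was 0.72 (SE 0.13, 95% interval 0.45 to 0.98, adjusted p = 0.000191, edgeR). Controls held 12.3, 9.68 and 8.76 CPM and SOD1-G93A libraries 35.2, 27.4 and 36.2 CPM. All SOD1-G93A values were far above every control value, with a log2 fold change of 1.69 (SE 0.17, 95% interval 1.31 to 2.06, adjusted p = 0.000271, edgeR).

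Tmem119 encodes a transmembrane protein used to tell microglia from infiltrating macrophages. Its level was 12.3 to 19.8 CPM in young (median 15.2) and 14.3 to 28.04 CPM in old libraries (median 23.05). The groups overlapped, with 5 of 8 old libraries above every young one, and the log2 fold change was 0.54 (SE 0.12, 95% interval 0.30 to 0.78, adjusted p = 0.00141, edgeR). Old library 6 had the lowest value of its group, and without it the log2 fold change was 0.61. Controls were at 18.4, 17.2 and 14.3 CPM and SOD1-G93A libraries at 28.6, 17.2 and 26.1 CPM. SOD1-G93A library 2 fell within the control range and the others above it. The log2 fold change was 0.53 (SE 0.19, 95% interval 0.10 to 0.97, adjusted p = 0.0599, edgeR) with all libraries and 0.72 (adjusted p = 0.00161) without SOD1-G93A library 2, so that the call turned on that library.

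Siglech encodes a sialic-acid-binding lectin of the microglial surface and had the fewest counts of the 8 in the aging libraries. It ranged from 3.98 to 8.76 CPM in young (median 6.63) and from 5.25 to 10.95 CPM in old libraries (median 6.97), and the ranges overlapped widely. The log2 fold change was 0.16 (SE 0.16, 95% interval -0.17 to 0.48, adjusted p = 0.498, edgeR), and 0.06 without old library 6, which had the highest value. Controls held 13.2, 10.4 and 10.1 CPM and SOD1-G93A libraries 13.6, 17.2 and 14.3 CPM. The groups lay apart by a narrow margin, and the log2 fold change of 0.43 (SE 0.16, 95% interval 0.06 to 0.80) missed the threshold (adjusted p = 0.0713, edgeR). With 30 to 87 counts per library in the aging experiment, Siglech had the widest interval there of the 8 genes.

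Sall1, the zinc-finger transcription factor that maintains microglial identity, was the most constant of the 8 in aging. It ranged from 54.2 to 64.6 CPM in young (median 57.8) and from 52.1 to 65.9 CPM in old libraries (median 57.4). The groups shared nearly their whole range, and the log2 fold change was -0.01 (SE 0.05, 95% interval -0.12 to 0.10, adjusted p = 0.903, edgeR), the narrowest interval of the 8. Controls were at 63.7, 50.5 and 65.7 CPM and SOD1-G93A libraries at 69.3, 63.9 and 67.8 CPM. These overlapped too, with a log2 fold change of 0.16 (95% interval -0.09 to 0.41, adjusted p = 0.296, edgeR).

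Olfml3 encodes a secreted olfactomedin-like protein and changed most of the 8 in both comparisons. Young libraries held 13.6 to 20.5 CPM (median 16.9) and old libraries 30.1 to 45.6 CPM (median 38.9). The groups were clearly apart, with a log2 fold change of 1.17 (SE 0.09, 95% interval 0.99 to 1.36, adjusted p = 1.26e-09, edgeR). Controls had 20.97, 18.4 and 15.4 CPM and SOD1-G93A libraries 89.1, 55.4 and 72.8 CPM. SOD1-G93A library 2 was the lowest of its group and still far above every control, and the log2 fold change was 1.99 (SE 0.18, 95% interval 1.58 to 2.41, adjusted p = 0.000229, edgeR).

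**Figure D2:**
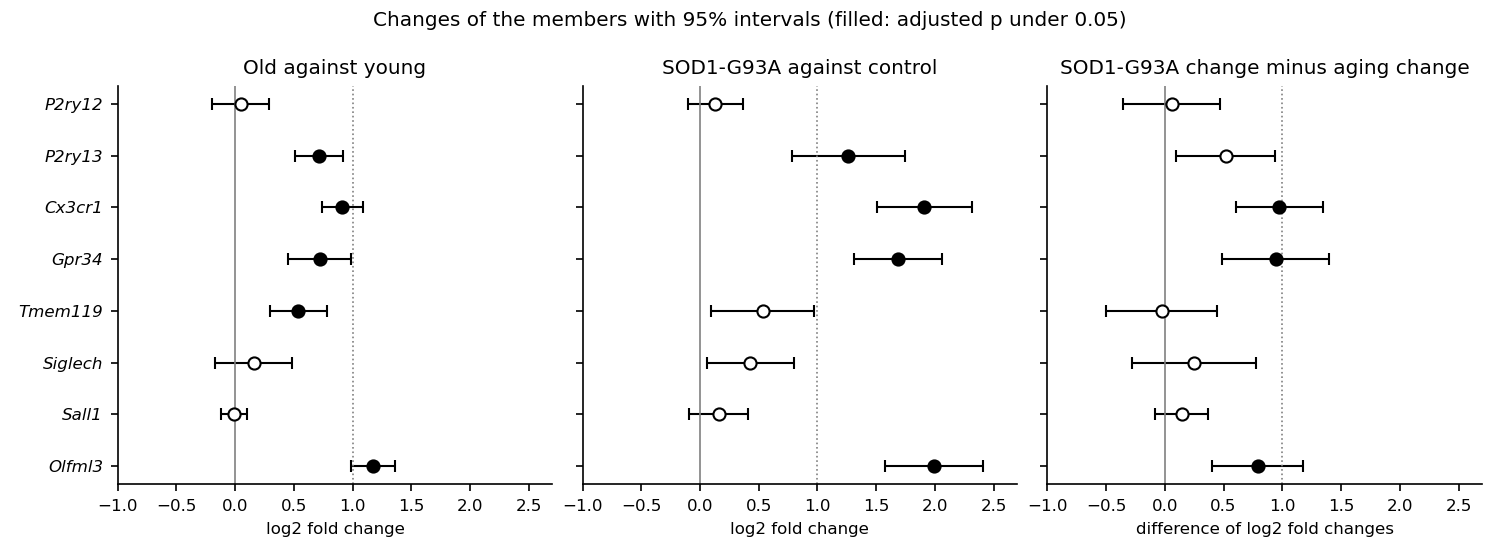
Log2 fold changes of the 8 genes (points) with 95% intervals (bars) in old against young mice, in SOD1-G93A against control mice, and the difference between these changes; filled points had an adjusted p under 0.05 and the dotted line marks 1. Olfml3, Cx3cr1 and Gpr34 are filled in all 3 panels, and P2ry12, Siglech and Sall1 in none.

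Whether the change in SOD1-G93A mice differed from that of aging was tested directly as an interaction over all 22 libraries, since the comparisons share no library. For 3 of the 8 genes the disease-model change exceeded the aging change, beside 11.6% of all 14502 genes in that direction and 25.8% in either direction. The log2 changes differed by 0.98 for Cx3cr1 (SE 0.18, adjusted p = 0.000334), by 0.94 for Gpr34 (SE 0.22, adjusted p = 0.00238) and by 0.79 for Olfml3 (SE 0.19, adjusted p = 0.00297, edgeR). For P2ry13 the difference of 0.52 (95% interval 0.10 to 0.94) did not pass with all libraries (adjusted p = 0.064), but did without old library 6 (adjusted p = 0.0476) or without control library 1 (adjusted p = 0.00312). The differences of P2ry12 (0.06, 95% interval -0.35 to 0.47), Tmem119 (-0.03, -0.50 to 0.44), Sall1 (0.14, -0.08 to 0.37) and Siglech (0.25, -0.28 to 0.77) spanned 0. Age, sex and kit differed between the experiments together with the disease model and cannot be told apart from it.

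The rank of the genes by level changed accordingly. Per transcript length, as FPKM, which divides by transcript length as well as depth, P2ry12 led in young cord at 11.1 ± 0.765, followed by Sall1 at 10.4 ± 0.709, Cx3cr1 at 9.66 ± 1.08 and Tmem119 at 6.62 ± 1.05 (SD, n = 8). The ranges of the first 3 overlapped, as did those of Cx3cr1 and Tmem119. Olfml3 at 3.90, Siglech at 3.88, Gpr34 at 3.74 and P2ry13 at 3.49 FPKM followed with overlapping ranges, and the range of Olfml3 ended below that of Tmem119. In old cord Cx3cr1 came first at 18.1 ± 3.83 FPKM, ahead of P2ry12 at 11.3 ± 2.08 (SD, n = 8), and every neighbouring pair in the order overlapped. Controls again had P2ry12 first at 14.7 ± 1.11, then Cx3cr1 at 11.4 ± 2.71 and Sall1 at 10.6 ± 1.46 FPKM (SD, n = 3), with a gap to the remaining 5 genes. In SOD1-G93A cord Cx3cr1 at 43.8 ± 6.49 FPKM stood clear of Olfml3 at 17.2 ± 3.80, Gpr34 at 16.9 ± 2.39 and P2ry12 at 15.7 ± 0.866 (SD, n = 3), which overlapped. Cx3cr1 made up 18.3% of the summed FPKM of the 8 genes in young, 24.3% in old, 18.2% in control and 33.1% in SOD1-G93A mice. P2ry12 and Sall1 thus stood at or near the top in young and control cord and below Cx3cr1 in old and SOD1-G93A cord, although neither had a called change of its own level.

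**Figure D3:**
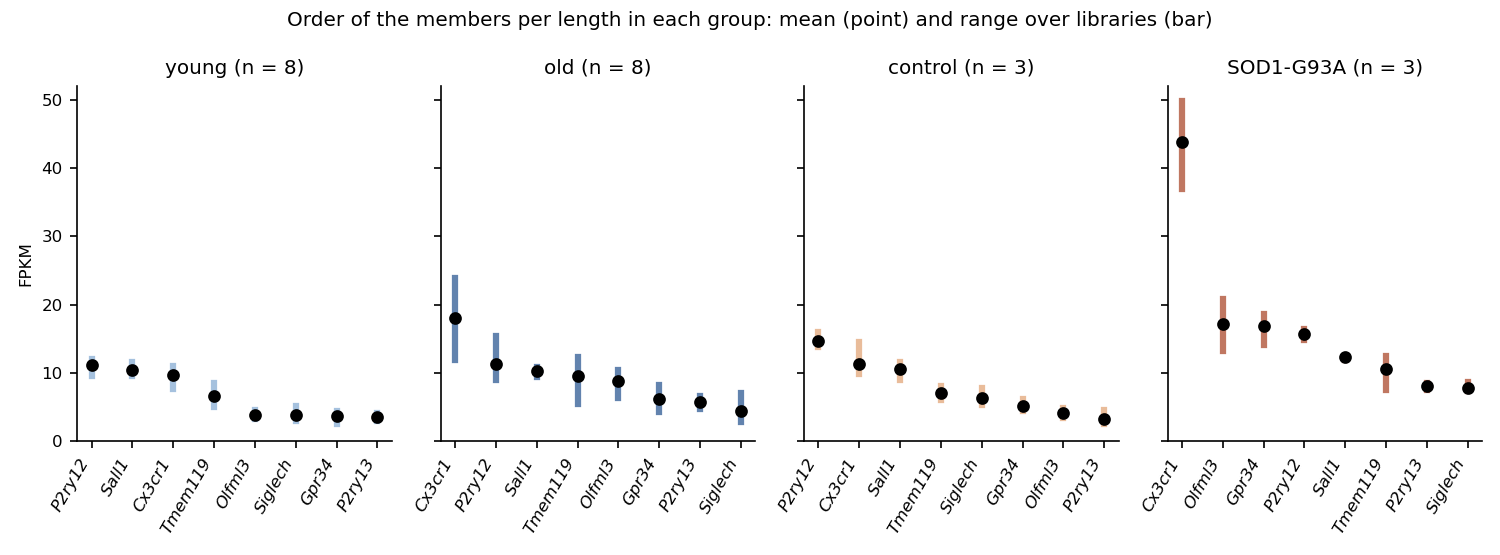
Mean FPKM (points) and range over libraries (bars) of the 8 genes in each group, ordered from highest to lowest within the group on a shared axis from 0. Cx3cr1 moves from the third place in young to the first in old, and reaches 43.8 FPKM in SOD1-G93A cord.

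Because pan-myeloid genes rose as well, each gene was also set against them. Per 1000 counts of the 22 summed pan-myeloid genes, P2ry12 held 100 to 148 counts in young and 35.4 to 121 in old libraries, and 144, 153 or 165 in controls against 22.2, 25.0 or 42.8 in SOD1-G93A libraries. Sall1 held 265 to 359 in young, 105 to 212 in old, 259 to 350 in control and 46.8 to 77.7 in SOD1-G93A libraries. The highest old value of both genes came from old library 6, well above the old medians of 46.5 and 114. Olfml3 by contrast held 72.9 to 102 in young and 61.2 to 96.8 in old, and 82.2 to 101 in control and 57.6 to 67.4 in SOD1-G93A libraries. Against the pan-myeloid sum P2ry12, Sall1, Siglech and Tmem119 thus lay furthest behind, and Olfml3 and Cx3cr1 least.

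Tested with the pan-myeloid sum as each library's scale, 7 of the 8 genes were lower in aging and 7 in the ALS model, the exception in both being Olfml3. On this scale 97.3% and 95.6% of all genes were lower, so the count does not set the 8 genes apart from other genes of the cord. The pan-myeloid sum varied between libraries of a group, from 822 to 1481 CPM in SOD1-G93A mice, and this variation entered every gene together. The p-values and intervals of this fit do not account for that shared part, so they can be too small or too narrow. The relative log2 fold changes in aging ran from -1.28 for Sall1 and -1.19 for P2ry12 through -1.12 for Siglech, -0.78 for Tmem119, -0.57 for Gpr34, -0.56 for P2ry13 and -0.40 for Cx3cr1 to -0.11 for Olfml3 (95% interval -0.34 to 0.11, adjusted p = 0.308, edgeR). In SOD1-G93A mice they were -2.37 for P2ry12, -2.36 for Sall1, -2.06 for Tmem119, -2.05 for Siglech, -1.27 for P2ry13, -0.86 for Gpr34, -0.63 for Cx3cr1 (adjusted p = 0.0455) and -0.59 for Olfml3 (adjusted p = 0.0507, edgeR). The median over the 8 genes was -0.68 in aging and -1.66 in SOD1-G93A mice, against -1.28 and -2.51 over all genes. The Cx3cr1 call in SOD1-G93A mice was lost on leaving out any of 5 of the 6 libraries (each of controls 1, 2 and 3 and SOD1-G93A libraries 1 and 3), and Olfml3 passed at 0.0495 or 0.000134 without SOD1-G93A library 1 or 2. With Aif1 alone, or with the geometric mean of the pan-myeloid genes, as the scale the counts were 7 in aging and 8 in SOD1-G93A mice. With Csf1r alone they were 3 and 4, and Cx3cr1 and Olfml3 lay above it in aging (log2 of 0.21 and 0.50, adjusted p of 0.0294 and 3.02e-05).

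**Figure D4:**
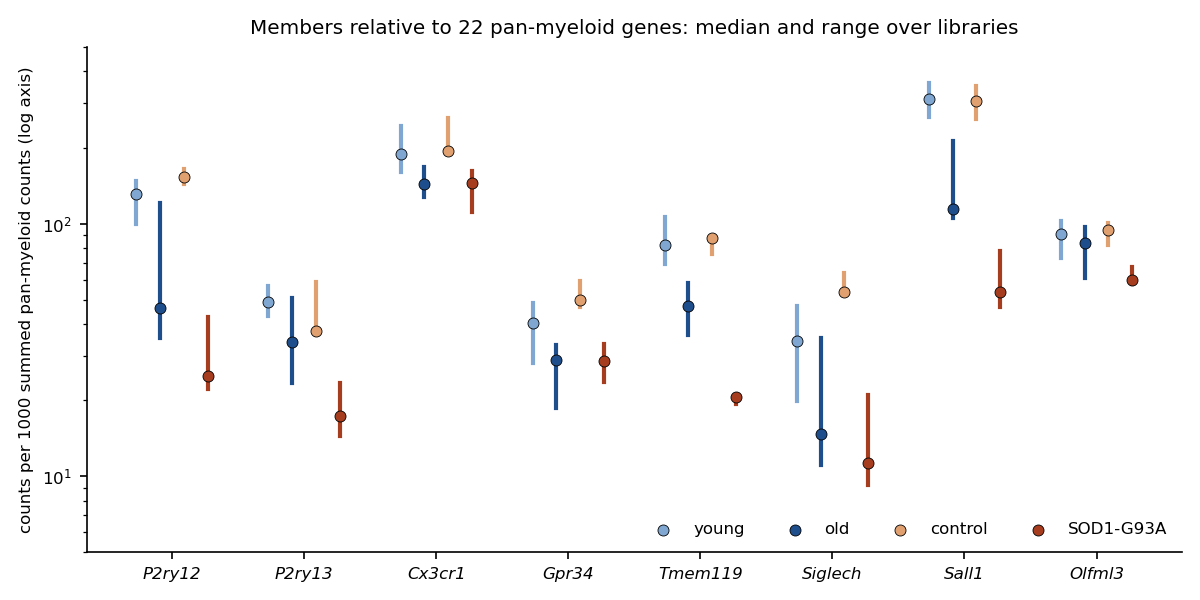
Counts of each of the 8 genes per 1000 counts of the 22 summed pan-myeloid genes, on a log axis, as the median (point) and the range over libraries (bar) in each group. The old and SOD1-G93A medians lie below those of young and control mice for every gene, from 311 to 114 for Sall1 but only from 91.0 to 83.9 for Olfml3 in aging.

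Among 25 further genes listed as homeostatic or microglia-enriched, 24 were tested in aging and 13 were higher and 0 lower by edgeR (median log2 fold change 0.34). In SOD1-G93A mice 16 of 25 were higher and 0 lower (median 0.84), and at an unadjusted p under 0.05 the counts were 14 and 17 higher and again 0 lower. The sialic-acid-binding lectin Cd33 and the integrin subunit Itgb5 rose in old mice by log2 of 1.19 and 0.85 (adjusted p of 2.83e-09 and 8.76e-08, edgeR). In SOD1-G93A mice Fcrls, an Fc receptor-like molecule, rose by log2 of 4.08, from 9.10 ± 2.27 to 154 ± 45.5 CPM (SD, n = 3 each), and Csf1r, the receptor on which microglia depend for survival, rose by 1.79.

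All 22 pan-myeloid genes were higher in old mice (median log2 fold change 1.33) and in SOD1-G93A mice (median 2.76), as were all 20 and all 21 tested disease-associated genes (medians 1.74 and 3.77). Among the pan-myeloid genes Laptm5, Plek and Cyth4 rose in old mice by log2 of 1.34, 1.54 and 1.66, and Plek, Itgam and Itgb2, the last 2 encoding the subunits of complement receptor 3, rose in SOD1-G93A mice by 2.87, 2.13 and 3.35. Among the disease-associated genes the lysosomal protein Cd68 rose from 5.74 ± 1.59 to 53.3 ± 10.7 CPM in old mice, the galectin Lgals3 from 2.82 ± 0.628 to 57.7 ± 17.4 CPM, and the lipid-sensing receptor Trem2 from 8.55 ± 1.39 to 44.5 ± 9.70 CPM (SD, n = 8 each). In SOD1-G93A mice Lpl, a lipase, rose from 9.76 ± 2.57 to 199 ± 52.9 CPM, and the integrin subunit Itgax from 0.737 ± 0.463 to 87.1 ± 30.9 CPM (SD, n = 3 each). The chemokine Ccl6 rose there by log2 of 4.36. The median of the 8 homeostatic genes, 0.63 in aging and 0.90 in SOD1-G93A mice, was lower than that of either list.

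**Figure D5:**
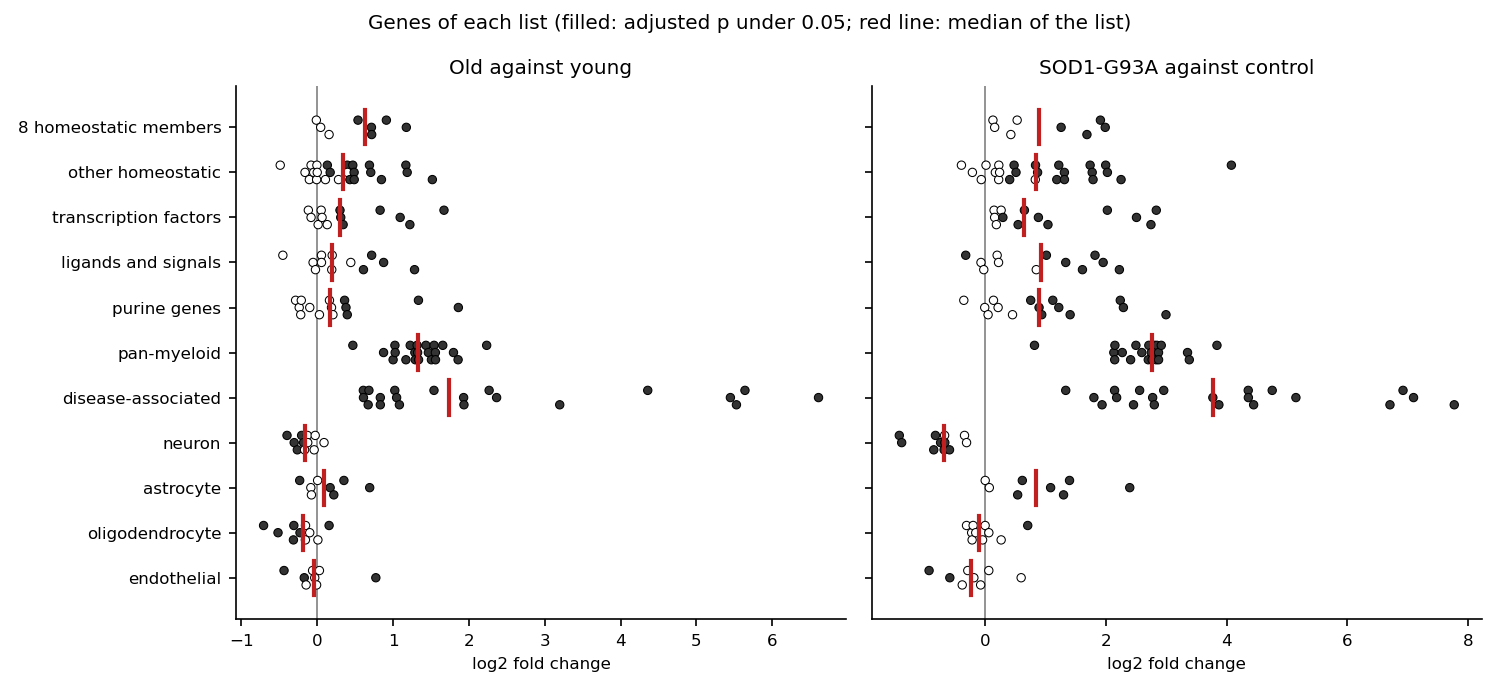
Log2 fold changes of the tested genes of 11 lists (points, filled where the adjusted p was under 0.05; the vertical spread has no meaning) with the median of each list as a red line, in old against young and in SOD1-G93A against control mice. The 8 homeostatic genes have medians of 0.63 and 0.90, below the pan-myeloid medians of 1.33 and 2.76.

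The regulators and ligands that act on these genes were described from lists of their own. Of 13 tested transcription factors used by microglia, 7 were higher in old mice (median log2 fold change 0.30) and 9 in SOD1-G93A mice (median 0.65), with 0 lower by edgeR also at an unadjusted p under 0.05. Irf5 and Runx1 rose in old mice by log2 of 1.22 and 1.67, and Runx1, Irf5 and Mef2c rose in SOD1-G93A mice by 2.84, 2.75 and 0.88, whereas Sall1 did not pass in either. Of 12 ligands and growth-factor signals, 4 were higher in old mice (median 0.19), and 6 were higher and 1, Cx3cl1, was lower in SOD1-G93A mice (median 0.93). Tgfb1, the cytokine that sustains the homeostatic state, rose from 6.82 ± 0.677 to 16.7 ± 3.60 CPM in old mice (SD, n = 8 each) and from 5.43 ± 0.533 to 25.3 ± 7.16 CPM in SOD1-G93A mice (SD, n = 3 each). Its receptor subunit Tgfbr1 rose by log2 of 0.72 and 1.82, and Tgfbr2 by 0.88 in old mice. Csf1, a ligand of Csf1r that also stands on the disease-associated list, rose in aging by log2 of 0.61 and in the ALS model by 1.34, and Il34, the other ligand of Csf1r and named here for that role, did not pass in either (log2 of 0.19 and -0.07, adjusted p of 0.156 and 0.742).

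Among the other genes of purine signalling, to which P2ry12 and P2ry13 belong, 5 of 14 tested were higher in old mice and 9 of 15 in SOD1-G93A mice, and 0 were lower by edgeR (medians 0.17 and 0.90; at an unadjusted p under 0.05, 2 of 14 and 1 of 15 were lower). P2ry6, the UDP receptor linked to phagocytosis, rose from 1.76 ± 0.704 to 6.53 ± 2.03 CPM in old mice (SD, n = 8 each) and from 1.75 ± 0.914 to 13.7 ± 5.61 CPM in SOD1-G93A mice (SD, n = 3 each). The ATP-gated channels P2rx4 and P2rx7 rose in old mice by log2 of 0.38 and 0.36, and P2rx7 by 1.12 in SOD1-G93A mice. Entpd1, the ecto-enzyme that breaks ATP and ADP down and that is also on the homeostatic list, rose there by 1.22. P2ry12 had no called change beside these rises.

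Some markers of other cells of the cord were also called, and their part in the values above was not tested. Over all genes 13.5% were called higher and 12.9% lower in old mice, and 18.4% and 15.5% in SOD1-G93A mice. Neuronal markers were lower for 5 of 11 genes in old mice and for 8 of 11 in SOD1-G93A mice, where Nefm fell from 2045 ± 126 to 765 ± 209 CPM (SD, n = 3 each). Astrocyte markers were higher for 4 and lower for 1 of 8 in old mice and higher for 6 of 8 in SOD1-G93A mice, where Gfap rose by log2 of 2.40. Oligodendrocyte markers were lower for 5 and higher for 1 of 10 in old mice, and 1 of 10, Cldn11, was higher in SOD1-G93A mice. Endothelial markers were higher for 1 and lower for 2 of 8 in old mice and lower for 2 of 8 in SOD1-G93A mice. The endothelial counts, and that of oligodendrocytes in SOD1-G93A mice, are not read as a change of these lists.

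The summed level of 11 border-macrophage markers was 8.62 to 15.96 CPM in young, 11.6 to 23.3 CPM in old, 10.8 to 14.04 CPM in control and 39.5 to 80.6 CPM in SOD1-G93A libraries. Only Stab1 passed the filter in aging (log2 fold change 0.24, adjusted p = 0.142), whereas 4 of 6 tested were higher in SOD1-G93A mice. Among them were Stab1 (to 30.8 ± 9.80 CPM), Siglec1 (from 0.252 ± 0.0759 to 15.02 ± 6.30 CPM) and Ms4a7 (from 0.0561 ± 0.0972 to 7.33 ± 3.63 CPM; SD, n = 3 each). Ms4a7 had at most 3 counts in any control library. The other tested genes are named to complete the list and stayed at low levels. Mrc1 went from 0.758 to 1.99 CPM with overlapping groups (adjusted p = 0.0478). Cd163 and F13a1 were not called (adjusted p of 0.114 and 0.272, edgeR). Clec10a had at most 3 counts in every SOD1-G93A library. Of 12 monocyte and neutrophil markers only Fn1, which other cells also express, passed the filter and rose in both comparisons (log2 of 0.72 and 1.501), and defining markers such as Plac8, Hp and Camp had at most 3 counts in every library of all 4 groups. Of 11 lymphocyte markers 0 were tested. Their sum was 0.970 to 2.26 CPM in young, 2.45 to 4.69 CPM in old, 1.23 to 2.37 CPM in control and 2.03 to 3.22 CPM in SOD1-G93A libraries. Every old library thus lay above every young one, at low counts. Cd3e, Cd3g, Cd8a and Cd2 had at most 3 counts in every young library but not in every old one. Ms4a1 had at most 3 counts in every library of all groups.

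Within groups the 8 genes did not vary as a block. Over the 16 aging libraries, with each value taken as its deviation from the group mean of log2 CPM, the 28 pairs of the 8 genes had Pearson r from -0.62 to 0.53 with a median of -0.07, and 10 of the 28 were positive. Old library 6 shows this in a single animal, with the highest P2ry12 (37.6 CPM), Sall1 (65.9 CPM) and Siglech (10.95 CPM) and the lowest Cx3cr1 (51.98 CPM), Gpr34 (9.56 CPM), Tmem119 (14.3 CPM) and Olfml3 (30.1 CPM) of the 8 old libraries. By FPKM the same genes were lowest in old library 6 and P2ry12 was highest, but Sall1 (10.6) and Siglech (6.07) were not highest. Sall1 was higher in old libraries 2 and 3 (10.91 FPKM in each), and Siglech in old library 4 (7.12 FPKM). The genes that were low or high in CPM did not all follow the pan-myeloid sum, which was lowest in old library 6. The summed level of 11 neuronal markers was highest in that library, at 9696 CPM, and next highest in old libraries 3 and 7, at 8834 and 8252 CPM, which were also the old libraries with the next highest P2ry12. SOD1-G93A library 2 had the highest P2ry12 and Siglech and the lowest Cx3cr1, Gpr34, P2ry13, Tmem119, Olfml3 and, unlike old library 6, Sall1 of its group, and the highest neuronal sum, at 6951 CPM against 4226 and 4732 CPM. The part of neuronal content in these values was not tested.

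Over the same 16 libraries the genes whose deviations were most like those of each member were named, as a description only. The part of differences in depth or dissection between libraries was not tested. Snap25, a synaptic gene that stands on the neuronal list, and Csnk1e were nearest to P2ry12 (Pearson r of 0.918 and 0.912, Spearman rho of 0.815 and 0.776), Myl6 and Smarcad1 to P2ry13 (r of 0.823 and 0.764, rho of 0.788 and 0.785), and Nek9 and Cacna2d3 to Cx3cr1 (r of 0.891 and 0.883, rho of 0.897 and 0.885). Rars2 and Klf11 were nearest to Gpr34 (r of 0.798 and 0.76), Apba3 and Pus7l to Tmem119 (r of 0.922 and 0.914), and Elovl1 and Adamts4 to Siglech (r of 0.85 and 0.806). Gm973 and Ttc17 were nearest to Sall1 (r of 0.859 and 0.853) and Hps5 and Stx18 to Olfml3 (r of 0.837 and 0.797). Apart from Snap25 these nearest genes were on none of the lists used here, and each was picked as the highest of 13647 genes.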

How the data were processed

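RNA was sequenced from 22 whole mouse spinal cords, 1 library per mouse. Per the study's methods and the submitters' processing notes, the authors aligned reads to mm10 with STAR, quantified genes with RSEM and Ensembl 88 annotation and used SAMtools 1.3, and the strand setting of the counting is not given in the sources used here. They deposited a table of RSEM expected counts and a table of log2(FPKM + 1) values. The deposited expected counts were rounded before testing, and the deposited log2 values were turned back into FPKM (pseudocount 1 removed) for comparing levels between genes. Symbols came from GENCODE M21 by gene identifier (21842 of 21995 matched). Columns carried group names and library codes, so libraries were numbered in column order as a name only, and no pair of libraries held the same values. Old and young, and SOD1-G93A and control, were compared with the edgeR 4.0.16 quasi-likelihood test (genes kept by filterByExpr at 10 counts and 15 in total, TMM scaling, Benjamini-Hochberg over all genes tested), calling an adjusted p under 0.05. The difference between the changes was an interaction term over all 22 libraries. The relative fit used the summed counts of 22 pan-myeloid genes as the offset of each library. Alternatives were DESeq2 1.42.0, limma 3.58.1 on the deposited log2 values, other scaling factors, other filters, other denominators, 1 fit of all libraries and leaving out each library in turn. A separate copy of the main edgeR fit and of the fit relative to the pan-myeloid sum was tested on simulated data. The interaction and the alternatives were not. For the relative fit the simulated pan-myeloid genes all shifted by the same factor in every library of a group. Variation of the pan-myeloid sum shared by the genes of a library was therefore not covered. The 8 genes and all lists were chosen with earlier results of these data known. From the other lists the 3 genes of smallest adjusted p in each comparison are named, except that a few of them and 1 planned denominator are not reported here, and for each of the 8 genes the 2 of highest Pearson r (log2 of CPM plus 0.5). Clec7a and Pnp were listed but not analysed here. Total counts of 5078092 to 13219797 per library set the precision, and intervals cover the spread between libraries of a group. Those of the relative fit do not account for the error that all genes share through the pan-myeloid sum.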

Additional observations from a re-analysis of the deposited data

Results flagged for a closer look

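Of 18 sets of library values examined, the 8 genes and the pan-myeloid sum in each group of 8 libraries, 1 held a value far from the rest. This was the summed level of the 22 pan-myeloid genes in old library 6, at 310.6 CPM, whose gap to the next lowest library made up 0.532 of the range of the old group. Chance alone flags about 1 in 20 such sets. None of the 8 homeostatic genes themselves had such a value in either group.

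The change in SOD1-G93A mice exceeded the change in old mice, by a test of the difference itself, for Cx3cr1 (0.975 on the log2 scale, adjusted p = 0.000334), for Gpr34 (0.9425, adjusted p = 0.00238) and for Olfml3 (0.7892, adjusted p = 0.00297, edgeR). Each of these genes was also higher in old than in young mice. The library kit, the sexes and the ages of the mice differed between the experiments in the same way as the contrast did, and these cannot be told apart from it.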

How the results depend on the processing

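Under other tools, scalings and filters the count of called genes among the 8 stayed at 5 in aging and (with RLE factors, the 1 such alternative run) at 3 for the difference between the changes, and was 4 or 5 in SOD1-G93A mice, 5 without TMM and in 1 fit of all libraries. Leaving out each library gave 5 to 5 called in aging, 4 to 5 in SOD1-G93A mice, 3 to 4 for the difference between the changes, and 7 to 7 (aging) and 6 to 8 (SOD1-G93A) relative to the pan-myeloid sum. Setting the genes against Aif1 alone or the geometric mean of the pan-myeloid genes gave 7 and 8, and setting them against Csf1r alone gave 3 and 4, since Csf1r itself rose less than the pan-myeloid sum. Ranking by CPM in place of FPKM kept 11 of 32 positions, because CPM is not divided by length. Against Csf1r alone the relative log2 change turned positive in aging for P2ry13 (0.0555), Cx3cr1 (0.2148), Gpr34 (0.0537) and Olfml3 (0.4956) and in SOD1-G93A mice for Cx3cr1 (0.1581) and Olfml3 (0.1973). Leaving out 1 library turned the sign of values near 0 only: in aging P2ry12 ran from -0.0593 to 0.0998 and Sall1 from -0.039 to 0.0103, and for the difference between the changes P2ry12 ran from -0.0169 to 0.2074 and Tmem119 from -0.1676 to 0.1432. Tmem119 in SOD1-G93A mice passed the threshold without TMM (adjusted p = 0.0435) and in 1 fit of all libraries (adjusted p = 0.0347). Over all such refits of a single gene (other than those leaving out a library), 155 kept direction and side of the threshold, 6 turned sign, 3 no longer passed and 4 newly passed.

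No paired analysis was possible because the columns of the tables carry no replicate numbers. With 3 libraries a group the ALS comparison had wide intervals, and with 30 to 133 counts in each aging library Siglech, Gpr34 and P2ry13 were measured with more counting error than Cx3cr1 or Sall1.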
